A study of Mus musculus with 99 samples.

Results

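Cd36, Fabp3, Cpt1b, Slc25a20, Cpt2, Acadvl, Acadl, Acadm, Hadha and Hadhb encode proteins that carry long-chain fatty acids into a cell and its mitochondria and oxidise them there. They were taken by symbol and make up 10 of the 35870 genes in the deposited count table. Poly(A) RNA was sequenced from gastrocnemius muscle, quadriceps muscle and whole spinal cord of wild-type male C57BL/6 mice, with the aim, as the labels give it, of comparing the tissues at different ages and with or without exercise. Each tissue had exercised mice at 18 months, sedentary mice at 18 months and sedentary mice at 10 months. Gastrocnemius and cord had 13, 10 and 10 libraries in these groups, and quadriceps had 12, 9 and 10, for 97 libraries in all. All groups shared strain, genotype and sex, and all mice were perfused with PBS before the tissues were frozen. The labels do not say what the exercise was, and no exercised group at 10 months was analysed here. Libraries carried numbers such as 3.1 that recur across tissues, but the labels do not say that a number marks an animal, so p-values measure the spread between these samples.

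Long-chain fatty acids enter muscle fibres with the help of the membrane protein CD36 and bind to FABP3 in the cytosol. After activation to acyl-CoA they are transferred to carnitine by CPT1 at the outer mitochondrial membrane, exchanged across the inner membrane by SLC25A20, and returned to CoA by CPT2. In the matrix each turn of beta oxidation begins with an acyl-CoA dehydrogenase matched to chain length, and for long chains the remaining steps are carried out by the mitochondrial trifunctional protein, made of HADHA and HADHB. Skeletal muscle depends on this route at rest and in sustained work, most of all in its oxidative fibres, whereas nervous tissue draws mainly on glucose.

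Cd36, the fatty acid translocase, lies at chr5:17781690-17888801 on the minus strand of GRCm38, and Fabp3, the heart-type fatty acid binding protein, at chr4:130308595-130315463 on the plus strand. Cpt1b, the muscle isoform of CPT1, lies at chr15:89416405-89425863 on the minus strand, Slc25a20, the carnitine-acylcarnitine carrier, at chr9:108662088-108684641 on the plus strand, and Cpt2 at chr4:107903981-107923610 on the minus strand. The dehydrogenase genes are all on minus strands: Acadvl for very long chains at chr11:70010183-70015411, Acadl for long chains at chr1:66830839-66863277, and Acadm for medium chains at chr3:153922357-153944632. Hadha, the trifunctional protein alpha subunit with hydratase and hydroxyacyl-CoA dehydrogenase activity, lies at chr5:30118304-30155162 on the minus strand. Hadhb, the beta subunit with thiolase activity, lies next to it at chr5:30155248-30184593 on the plus strand. In the RefSeq annotation the starts of Hadha and Hadhb are 273 bases apart and the genes run away from each other.

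Promoter sequence was available from RefSeq (GRCm38.p6) for 9 of the 10 genes, all but Cpt1b. In the 250 bases before each start, both strands were searched for AGGTCA, the core of nuclear receptor sites, and for GGGCGG, the GC box. AGGTCA was found in 3 of the 9 windows (Acadm, Cd36 and Acadvl), against 14% of 32851 promoter windows of the same length. GGGCGG was found in 6 of the 9 (Acadl, Cpt2, Cd36, Hadha, Hadhb and Slc25a20), against 32.7% of all windows. The windows of Hadha and Hadhb overlap. The match 188 to 183 bases before the Hadha start is the same site as that 90 to 85 bases before the Hadhb start. It therefore counted in both windows. The 4 windows below were chosen because they show the stretch shared by the trifunctional protein genes, the gene that stood out most in library 3.1 of both muscles (Acadl), and the genes of uptake and medium-chain oxidation with the receptor core. Capitals mark GGGCGG or its reverse complement in Hadhb and Acadl, and AGGTCA or its reverse complement in Acadm and Cd36; each runs 5′ to 3′ along the gene's strand. The start used for Cd36 is the one in the RefSeq promoter table and lies 53063 bases inside the gene's RefSeq span, so its window is at an internal start and not at the outermost one. For the other 8 genes the window adjoins the outermost start.
Hadhb (chr5:30155003-30155252, plus strand): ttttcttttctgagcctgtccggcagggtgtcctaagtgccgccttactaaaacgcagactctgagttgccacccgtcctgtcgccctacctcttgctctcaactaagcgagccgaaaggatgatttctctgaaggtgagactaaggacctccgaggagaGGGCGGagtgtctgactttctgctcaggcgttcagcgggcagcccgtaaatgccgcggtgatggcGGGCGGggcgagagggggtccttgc
Acadl (chr1:66863310-66863559, minus strand): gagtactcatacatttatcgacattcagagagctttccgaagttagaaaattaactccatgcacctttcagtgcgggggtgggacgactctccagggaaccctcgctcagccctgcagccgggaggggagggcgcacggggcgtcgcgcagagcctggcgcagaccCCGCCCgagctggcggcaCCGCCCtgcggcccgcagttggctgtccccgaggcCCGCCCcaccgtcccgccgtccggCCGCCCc
Acadm (chr3:153944644-153944893, minus strand): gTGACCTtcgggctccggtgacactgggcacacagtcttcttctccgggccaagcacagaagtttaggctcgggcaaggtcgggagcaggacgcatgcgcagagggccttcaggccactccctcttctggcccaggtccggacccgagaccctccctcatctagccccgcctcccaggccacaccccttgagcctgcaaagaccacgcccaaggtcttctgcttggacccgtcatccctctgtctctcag
Cd36 (chr5:17835897-17836146, minus strand): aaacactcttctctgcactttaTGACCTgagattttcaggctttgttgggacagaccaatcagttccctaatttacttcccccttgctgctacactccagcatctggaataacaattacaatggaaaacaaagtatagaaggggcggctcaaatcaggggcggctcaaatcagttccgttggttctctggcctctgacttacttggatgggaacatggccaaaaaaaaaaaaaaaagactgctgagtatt

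Hadhb carried 2 matches to the GC box and Acadl 4, and Acadm and Cd36 carried 1 receptor core each, on the opposite strand. GC content was 68.0% in the Acadl window, 64% in Acadm, 58.8% in Hadhb and 43.2% in Cd36, beside a median of 52.4% over all windows. The longer motifs AGGTCANAGGTCA, a direct repeat bound by PPAR with RXR, and TNAAGGTCA, bound by oestrogen-related receptors, both contain AGGTCA and were in 0.0335% and 1.14% of all windows. Neither of these was in the 9 windows, nor was CTANNNNTAG, a core of MEF2 sites found in 3.2% of all windows. CANNTG, the E-box, was in 5 of the 9 and in 66.2% of all windows. A match describes the letters only, and the absence of one says nothing about binding.

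Library totals ran from 29063006 to 62769274 counts. A few libraries stood apart: gastrocnemius 3.1 and 2.2 and quadriceps 3.1 (sedentary, 10 months), and cord 5.2 and 6.1 (sedentary, 18 months). The share of counts from mitochondrially encoded genes in exercised 18-month, sedentary 18-month and sedentary 10-month mice was 12.4 ± 1.82%, 10.5 ± 0.767% and 10.6 ± 1.34% in gastrocnemius. It was 15.3 ± 3.01%, 13.2 ± 2.44% and 13.1 ± 2.08% in quadriceps and 4.59 ± 0.276%, 4.09 ± 0.901% and 4.60 ± 0.186% in cord (SD; n as above). Cord 5.2 was lowest of all at 1.58%. Skeletal muscle markers summed to 119.5, 297.4 and 985.2 TPM (lowest, median and highest library) in cord, against 113790, 141730 and 167490 TPM in gastrocnemius, so the cord median was 0.21% of that in gastrocnemius. Neuron markers summed to 6368.2 TPM or more in every cord library, against at most 8.03 TPM in gastrocnemius and 6.74 TPM in quadriceps. The libraries thus matched their labels as cord or muscle, but these markers cannot tell gastrocnemius from quadriceps.

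TPM levels, which are scaled for gene length and can be compared between genes, are given as the lowest, median and highest library. Among the uptake genes, Fabp3 had 499.0, 728.8 and 1236.0 TPM over the gastrocnemius libraries and Cd36 98.4, 152.4 and 223.6 TPM. Of the mitochondrial enzymes the dehydrogenases were most abundant, with gastrocnemius medians in exercised 18-month mice of 389.4 TPM for Acadvl, 377.9 TPM for Acadm and 308.6 TPM for Acadl. Hadha followed at 221.2 TPM and Hadhb at 105.8 TPM, and the ratio of Hadha to Hadhb had a median of 2.14 in gastrocnemius, 2.28 in quadriceps and 2.14 in cord. The carrier gene Slc25a20 and the transferase gene Cpt2 were lower, at 81.2 TPM and 62.0 TPM. In exercised gastrocnemius the ranges of neighbours in order of median overlapped, except between Hadhb and Slc25a20 and between Cpt2 and Cpt1b. Most neighbours overlapped in sedentary 10-month gastrocnemius too. Only in sedentary 18-month gastrocnemius did each gene's range lie apart from that of its neighbour, except between Acadm and Acadvl. In quadriceps the ranges of Acadvl, Acadm, Acadl, Hadha, Cd36, Hadhb and Slc25a20 overlapped from neighbour to neighbour in both sedentary groups.

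**Figure D1:**
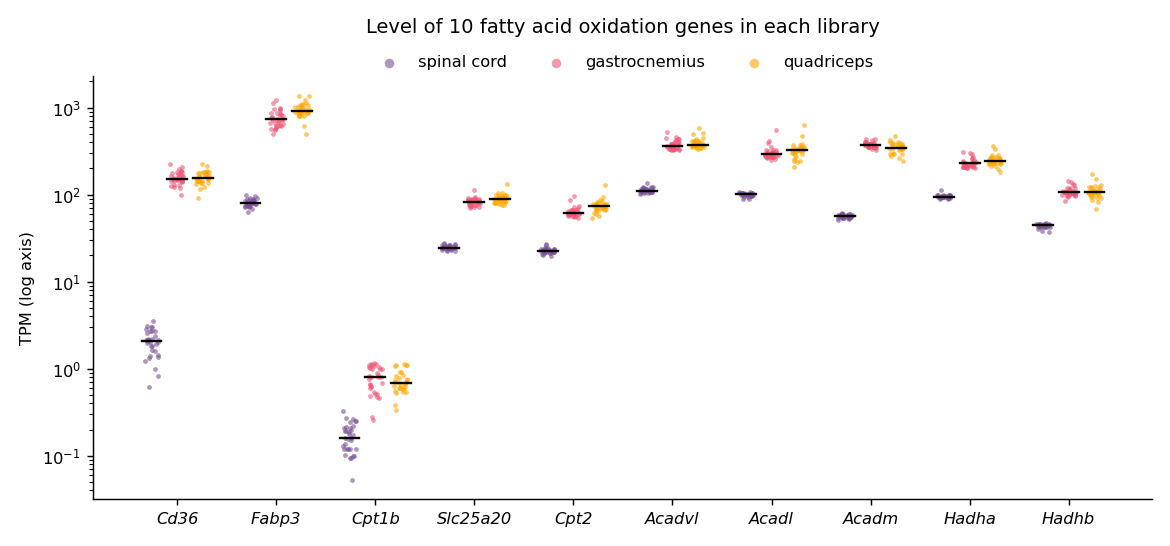
TPM on a log axis for the 10 genes in every library of cord, gastrocnemius and quadriceps, all conditions together; points are libraries and bars are the medians of a tissue. Fabp3 had the highest median in both muscles, and all genes but Cpt1b were lower in every cord library than in any muscle library.

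Cpt1b stood below the rest, with medians of 0.898, 0.982 and 0.645 TPM in exercised 18-month, sedentary 18-month and sedentary 10-month gastrocnemius and of 0.707, 0.764 and 0.634 TPM in quadriceps. These values rested on 11 to 89 counts a library in gastrocnemius, 16 to 69 in quadriceps and 2 to 13 in cord. Of the 3372 exon bases annotated to Cpt1b, 2744 (81.4%) are also annotated to Gm44502 on the same strand, a gene with 0 counts in all libraries. How reads shared by both genes were counted is not given in the sources used here, so the Cpt1b level is uncertain. Opposite-strand exons cover 42.9% of Acadvl (Dvl2), 9.84% of Fabp3 (Zcchc17) and 0.859% of Hadha (Garem2), and the library kit does not keep the strand.

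Ageing was examined by comparing sedentary mice at 18 months with those at 10 months. No member passed the threshold of adjusted p 0.05 in gastrocnemius, where edgeR called 0.153% of 15027 genes, or in quadriceps, where it called 0.277% of 14790. DESeq2 and limma on log2(TPM + 1) also called 0 members in both muscles. At an unadjusted p under 0.05 edgeR had 2 members in gastrocnemius (Cpt1b and Cpt2), beside 9.75% of genes, and 1 in quadriceps (Cpt2), beside 12.0%. In bulk tissue, fewer cells of a type and less RNA per cell cannot be told apart.

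Cpt2 had 54.3, 59.7 and 64 TPM in sedentary 18-month gastrocnemius, against 60.3, 67.0 and 96.3 TPM at 10 months. In quadriceps it had 53.8, 70.8 and 80.3 TPM at 18 months, against 61.9, 77.9 and 127.3 TPM at 10 months. The ranges overlapped in both muscles and library 3.1 set the 10-month maximum in each. That library was kept in the estimates that follow, which lowers them. The log2 difference for Cpt2 was -0.23 (95% interval -0.40 to -0.07, edgeR adjusted p = 0.284) in gastrocnemius and -0.22 (-0.38 to -0.05, adjusted p = 0.259) in quadriceps.

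Fabp3 had 561.5, 664.1 and 946.9 TPM in sedentary 18-month gastrocnemius, against 584.0, 793.1 and 1236.0 TPM at 10 months. In quadriceps it had 493.2, 869.7 and 1140.0 TPM at 18 months, against 804.8, 1053.8 and 1361.8 TPM at 10 months. The groups overlapped, and the log2 difference was -0.26 in each muscle (edgeR adjusted p = 0.566 in gastrocnemius and 0.45 in quadriceps). Estimates for 8 of the 10 genes lay below 0 in both muscles, with a median over the members of -0.09 in gastrocnemius and -0.10 in quadriceps, beside -0.02 and -0.01 over all genes tested. Cpt1b and Cd36 lay above 0 in both. The members varied together among muscle libraries, so the 8 signs are not separate observations. Library 3.1 was the highest of the 10-month libraries for 7 members in each muscle. It was kept in these estimates, which pulls the differences for those members down. Leaving out Cpt1b, the 95% intervals of the members reached at most from -0.55 to 0.26 in gastrocnemius and from -0.53 to 0.25 in quadriceps.

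Exercise was examined at 18 months, against the same sedentary 18-month libraries. No member passed in gastrocnemius, where edgeR called 0.153% of genes, or in quadriceps, where it called 0.751%, and DESeq2 and limma called 0 members in both. At an unadjusted p under 0.05 there were 2 members in gastrocnemius (Acadvl and Acadl), beside 13.6% of genes, and 1 in quadriceps (Acadvl), beside 11.4%. Acadvl, which takes the first step for the longest chains, had 336.1, 389.4 and 519.8 TPM in exercised gastrocnemius, against 326.6, 345.3 and 360.1 TPM in sedentary gastrocnemius. Exercised libraries lay above the sedentary median in 10 of 13 cases, although the ranges overlapped. The log2 difference was 0.23 (95% interval 0.07 to 0.38, edgeR adjusted p = 0.177).

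In quadriceps Acadvl had 331.5, 382.4 and 580.2 TPM in exercised mice, against 339.3, 368.6 and 412.4 TPM in sedentary mice, a log2 difference of 0.19 (0.03 to 0.35, adjusted p = 0.307). Acadl had 268.8, 308.6 and 407.2 TPM in exercised gastrocnemius, against 263.4, 275.3 and 301.5 TPM in sedentary gastrocnemius. Its log2 difference was 0.20 (0.02 to 0.38, adjusted p = 0.309), with 11 of 13 exercised libraries above the sedentary median. Without gastrocnemius 3.1 and 2.2, which share the estimate of spread but belong to neither group, Acadvl passed in gastrocnemius at an adjusted p of 0.0296 with the log2 difference still at 0.23, where 2.97% of genes passed as higher. With the first part of the library number as a term, Acadvl (0.25, adjusted p = 0.0291) and Acadl (0.23, adjusted p = 0.0348) passed, where 5.38% of genes passed as higher.

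By edgeR, estimates for 8 of the 10 genes lay above 0 in both muscles with exercise, with a median of 0.10 in gastrocnemius and 0.08 in quadriceps, beside 0.0 over all genes in each. On log2(TPM + 1), where the median of all genes in quadriceps was -0.05, only 5 of the 10 lay above 0 there: Cpt1b was at -0.09, Slc25a20 at -0.07, Acadm at -0.05, Cd36 at -0.04 and Acadl at -0.02. The sign in quadriceps changed between settings for the 4 of these other than Cpt1b, although Slc25a20 ran only from -0.07 to 0.0. The members varied together among muscle libraries, so their signs are not separate observations. The 95% intervals without Cpt1b reached from -0.18 to 0.38 in gastrocnemius and from -0.17 to 0.36 in quadriceps. The mitochondrially encoded share was higher in exercised than in sedentary 18-month muscle by the means given above, and its part in these estimates was not tested. When exercised 18-month mice were set against sedentary 10-month mice, edgeR called no member in gastrocnemius (6.63% of genes), quadriceps (11.0%) or cord (1.47%). At an unadjusted p under 0.05 there was 1 member in gastrocnemius (24.3% of genes), 0 in quadriceps (28.4%) and 1 in cord (13.5%), and DESeq2 and limma called none.

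**Figure D2:**
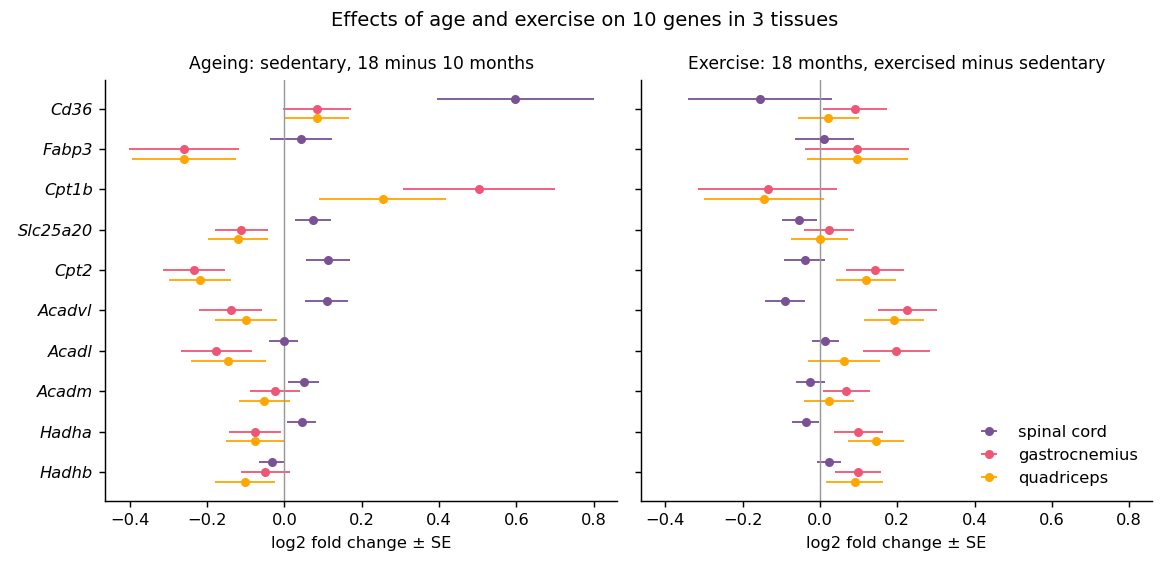
Log2 fold changes with their SE (bars) for the 10 genes in cord, gastrocnemius and quadriceps, for sedentary mice at 18 against 10 months (left) and exercised against sedentary mice at 18 months (right); Cpt1b was not tested in cord. In the muscles 8 genes lay below 0 with age and 8 above 0 with exercise in both on this scale (5 in quadriceps with exercise on log2(TPM + 1)), and no gene passed an adjusted p of 0.05. Both panels use the same sedentary 18-month libraries with opposite sign and the genes vary together, so these counts are not independent. The ageing estimates include library 3.1.

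Of 73 other genes of fatty acid use, ageing moved 0 past the threshold in gastrocnemius and 0 in quadriceps. Exercise moved 0 in gastrocnemius and 1 in quadriceps. That gene was Got2, the mitochondrial aspartate aminotransferase that is also known as a fatty acid binding protein of the plasma membrane. Got2 had 369.7, 466.9 and 625.7 TPM in exercised quadriceps, against 310.6, 360.2 and 421.6 TPM in sedentary quadriceps, and rose by a log2 difference of 0.41 (edgeR adjusted p = 0.00836). In exercised 18-month against sedentary 10-month mice, Got2 rose by 0.35 in gastrocnemius and 0.51 in quadriceps, and both calls held without the libraries that stand apart (0.32, adjusted p = 0.00937, and 0.48, adjusted p = 7.06e-05). In the same comparison the thioesterase gene Acot1 fell by 1.58 in gastrocnemius and by 2.27 in quadriceps on the log2 scale. Without those libraries Acot1 was at 0.01 (adjusted p = 0.987) and -0.66 (adjusted p = 0.116), so its call rested on them. Mlycd, malonyl-CoA decarboxylase, fell by 0.40 and 0.50. Without those libraries Mlycd was at -0.13 (adjusted p = 0.299) in gastrocnemius and -0.25 (adjusted p = 0.0429) in quadriceps. Other calls that held without those libraries were Fabp4 (0.36), Rxra (-0.21), Ppard (-0.17) and Acacb (-0.17) in gastrocnemius. In quadriceps they were Fabp5 (0.45), Lipe (0.43), Gpihbp1 (0.32) and Ppargc1b (0.27). Fabp4 and Acot2 in quadriceps and Slc27a4 in gastrocnemius no longer passed.

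Gastrocnemius and quadriceps were next compared within each condition. Cpt2, Slc25a20, Fabp3 and Hadha were lower in gastrocnemius than in quadriceps in all 3 conditions. In exercised 18-month mice 5 of the 10 passed as lower, against 8.87% of 15433 genes. In sedentary 18-month mice 6 passed as lower, against 6.06%, and in sedentary 10-month mice 4 did, against 4.17%. None passed as higher in any condition, where 9.61%, 6.93% and 6.72% of genes did. TPM ranges of the muscles overlapped for every member in every condition.

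Fabp3, the most abundant member, had 499.0, 728.8 and 1122.1 TPM in exercised 18-month gastrocnemius, against 609.3, 870.4 and 1367.7 TPM in quadriceps. At 18 months in sedentary mice it had 561.5, 664.1 and 946.9 TPM in gastrocnemius, against 493.2, 869.7 and 1140.0 TPM in quadriceps. At 10 months it had 584.0, 793.1 and 1236.0 TPM in gastrocnemius, against 804.8, 1053.8 and 1361.8 TPM in quadriceps. Gastrocnemius libraries lay below the quadriceps median in 11 of 13, 8 of 10 and 9 of 10 cases. The log2 differences were -0.46 (SE 0.126, edgeR adjusted p = 0.00659), -0.46 (SE 0.145, 0.0252) and -0.45 (SE 0.141, 0.0265).

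Cpt2, which returns acyl groups to CoA inside the mitochondrion, had 56.4, 62.0 and 87.5 TPM in exercised 18-month gastrocnemius, against 56.7, 71.5 and 93.4 TPM in quadriceps. Its sedentary 18-month values were 54.3, 59.7 and 64 TPM in gastrocnemius, against 53.8, 70.8 and 80.3 TPM in quadriceps, and its 10-month values were 60.3, 67.0 and 96.3 TPM, against 61.9, 77.9 and 127.3 TPM. All 10 sedentary 18-month gastrocnemius libraries lay below the quadriceps median. The log2 differences were -0.35 (edgeR adjusted p = 0.000263), -0.37 (0.00084) and -0.34 (0.00164) in exercised 18-month, sedentary 18-month and sedentary 10-month mice. Fold values were 0.786, 0.776 and 0.789.

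Slc25a20, the carrier that works between CPT1 and CPT2, had 70.3, 81.2 and 94.3 TPM in exercised 18-month gastrocnemius, against 75.8, 85.0 and 104.9 TPM in quadriceps. In sedentary mice it had 73.4, 81.1 and 86.9 TPM in gastrocnemius at 18 months, against 80.8, 92.2 and 99.4 TPM in quadriceps, and 73.0, 86.5 and 114.2 TPM at 10 months, against 79.7, 95.2 and 131.6 TPM. The ranges overlapped throughout, with all 10 sedentary 18-month gastrocnemius libraries under the quadriceps median. Log2 differences were -0.25 (edgeR adjusted p = 0.00293), -0.27 (0.00625) and -0.28 (0.00554). Hadha was also lower, with log2 differences of -0.27 (0.00124), -0.22 (0.0285) and -0.21 (0.0333) in the same order of conditions.

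Acadvl passed in exercised 18-month mice (-0.20, edgeR adjusted p = 0.0337) and sedentary 18-month mice (-0.24, 0.0412), and Acadl in sedentary 18-month mice (-0.29, 0.0342). In sedentary 18-month mice all 10 gastrocnemius libraries lay below the quadriceps median for Acadvl and for Acadl. Acadm, Cd36, Hadhb and Cpt1b did not pass in any condition in this fit. With the shared library number as a block, Cd36 passed as lower in sedentary mice at 18 months (adjusted p = 0.0332) and 10 months (0.0125), and Hadhb in exercised 18-month (0.0156) and sedentary 10-month mice (0.00607). That fit called 19.3%, 12.1% and 11.1% of all genes as lower in exercised 18-month, sedentary 18-month and sedentary 10-month mice. The members' median was -0.18 in exercised 18-month, -0.23 in sedentary 18-month and -0.22 in sedentary 10-month mice, beside 0.0, -0.01 and 0.0 over all genes tested. Of the other genes of fatty acid use, 72 were tested, with 18, 12 and 4 lower and 6, 6 and 3 higher in the same order. Lower genes included Slc27a4, a fatty acid transport protein (-0.31, -0.25 and -0.22), while Acsl6, an acyl-CoA synthetase, was higher (0.24, 0.33 and 0.34). The transcriptional regulators Ppargc1a (0.24, 0.32 and 0.30) and Esrrg (0.45, 0.58 and 0.44) were also higher in each condition.

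The size of these differences depended on the scale. On deposited TPM, where the median of all genes was shifted by 0.11, 0.07 and 0.08 in exercised 18-month, sedentary 18-month and sedentary 10-month mice, limma, which called 1.93%, 2.59% and 1.57% of genes as lower, gave -0.29 (adjusted p = 0.0464), -0.32 (0.0969) and -0.37 (0.0445) for Fabp3. It gave -0.17 (0.0686), -0.24 (0.0471) and -0.22 (0.0732) for Cpt2, and Slc25a20 and Hadha did not pass. In exercised 18-month mice Acadl, Cd36 and Hadhb changed sign on that scale (0.02, 0.05 and 0.06), and Acadm passed as higher in gastrocnemius (0.18, adjusted p = 0.0274), as did 29.5% of genes. Leaving out single libraries gave 4 to 5 members in exercised 18-month mice and 2 to 6 in each sedentary condition. The count was 2 without sedentary 10-month gastrocnemius 1.3 or 1.4, 2 without sedentary 18-month quadriceps 6.1, and 3 without sedentary 18-month gastrocnemius 7.4.

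Other features of the muscles were also compared. Adipocyte markers summed to 86.2, 171.0 and 495.7 TPM in exercised 18-month gastrocnemius, against 241.9, 391.9 and 567.4 TPM in quadriceps. In sedentary 18-month mice the sums were 72.1, 122.1 and 208.9 TPM in gastrocnemius, against 88.1, 386.7 and 823.0 TPM in quadriceps, and at 10 months 97.0, 140.6 and 247.8 TPM, against 144.2, 191.0 and 360.6 TPM. Lower calls were made for 5, 6 and 0 of the 7 adipocyte markers in that order.

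Slow-fibre markers summed to 1417.5, 1732.6 and 2284.6 TPM in exercised 18-month gastrocnemius, against 894.0, 1353.3 and 1761.2 TPM in quadriceps. At 18 months in sedentary mice they summed to 1342.7, 1798.3 and 2426.2 TPM, against 823.9, 1224.1 and 1451.6 TPM, and at 10 months to 1366.7, 1636.6 and 1883.2 TPM, against 675.3, 1187.6 and 1605.2 TPM. Higher calls in gastrocnemius were made for 1, 4 and 2 of the 8 slow-fibre markers. The 10 fast-fibre markers summed to 97507, 128700 and 141760 TPM in exercised 18-month gastrocnemius, against 93133, 115810 and 141770 TPM in quadriceps. In sedentary mice they summed to 132240, 140710 and 150570 TPM in gastrocnemius at 18 months, against 118290, 133460 and 140510 TPM in quadriceps, and at 10 months to 112150, 135300 and 170590 TPM, against 114640, 131740 and 138150 TPM. Lower calls were made for 2, 1 and 3 of them in that order, and higher calls for 0. The mitochondrially encoded share was also lower in gastrocnemius. The part of each of these in the members' differences was not tested. Whether the difference between the muscles itself changed with age or exercise was also tested: 0 passed in either test of the difference (background 0.0%), and DESeq2 called 0. At an unadjusted p under 0.05 there were 0 members in both tests, beside 1.48% of genes for ageing and 2.27% for exercise.

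**Figure D3:**
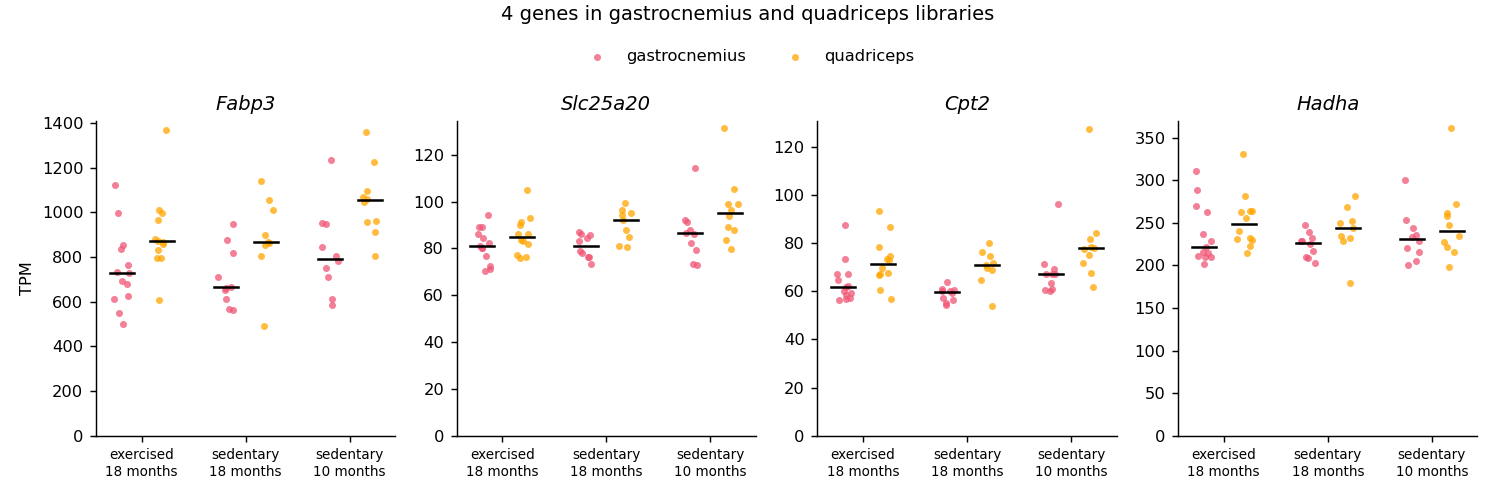
TPM of Cpt2, Slc25a20, Fabp3 and Hadha in every library of gastrocnemius and quadriceps, by condition; points are libraries and bars are medians. Gastrocnemius medians were below quadriceps medians in each condition (for Fabp3 728.8 against 870.4, 664.1 against 869.7 and 793.1 against 1053.8 TPM), with overlapping ranges.

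In cord all 10 genes were lower than the mean of both muscles, and 9 of the 10 were lower in every cord library than in any muscle library. In this comparison edgeR called 39.7% of 19735 genes as lower, and 6.07% had ranges that lay apart with cord lower. Cd36 was furthest apart, with 2.18, 2.43 and 1.52 TPM as cord medians in exercised 18-month, sedentary 18-month and sedentary 10-month mice. Its median over cord was 1.36% of that in gastrocnemius, and the lowest muscle library held 25.6 times the highest cord library. Fabp3 in cord was at 11.0% of gastrocnemius, Acadm at 15.4%, Slc25a20 at 29.9%, Acadvl at 30.9% and Acadl at 34.7%. Cpt2 (37.3%), Hadha (41.5%) and Hadhb (41.9%) were nearest to muscle. The range of Cpt1b in cord overlapped those in the muscles.

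The order of the dehydrogenases also differed: the ratio of Acadvl to Acadm had a median of 1.97 in cord, against 0.99 in gastrocnemius and 1.08 in quadriceps. In cord Acadvl had the highest median of the members (109.3, 115.1 and 109.3 TPM), followed by Acadl (102.0, 102.1 and 100.2 TPM) and Hadha (94.6, 94.8 and 94.8 TPM), whose ranges overlapped that of Acadl. Fabp3 came after them at 79.8, 79.6 and 80.5 TPM. Log2 differences of cord from muscle ran from -7.80 (Cd36) to -2.82 (Hadhb) with a median of -3.30, beside 0.40 over all genes. On log2(TPM + 1) they ran from -5.72 (Cd36) to -0.57 (Cpt1b) with a median of -1.68, beside 1.06 over all genes. The added 1 shrinks the difference of a gene as low as Cpt1b, which was at -3.61 on the first scale. Hadhb came next on log2(TPM + 1), at -1.27.

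Of the 73 other genes of fatty acid use, 57 were lower in cord and 15 higher. All 11 other matrix enzymes of beta oxidation and all 3 genes of the electron transfer flavoprotein system were lower. Relatives of the members were among the higher genes. Cpt1c, the CPT1 isoform of neurons, had a median of 59 TPM in cord, against 0.997 in gastrocnemius and 0.973 in quadriceps. Cpt1a, the widely expressed isoform, had 43.0 TPM in cord, against 3.35 and 2.64 TPM. Fabp7, which marks astrocytes and other glia, had 105.3 TPM in cord, against 0.162 and 0.157 TPM, and Fabp5 had 402.8 TPM, against 20.3 and 17.2 TPM. Acsl3 and Acsl6, acyl-CoA synthetases, had 200.8 and 138.1 TPM in cord, whereas Acsl1 had 23.1 TPM in cord, against 92 and 90.4 TPM in the muscles.

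Within cord, 9 members were tested for ageing and none passed, where edgeR called 5.25% of 18956 genes. Only Cd36 had an unadjusted p under 0.05, as did 26.2% of genes. DESeq2, which called 4.82% of genes as higher, called Cd36 (adjusted p = 0.0374), and limma called 0 members. Cd36 had 0.613, 2.43 and 3.56 TPM in sedentary 18-month cord, against 1.23, 1.52 and 2.14 TPM at 10 months. The groups overlapped, with 9 of 10 of the 18-month libraries above the 10-month median. The log2 difference was 0.60 (95% interval 0.19 to 1.01, edgeR adjusted p = 0.0698). It passed without cord 5.2 (0.72, adjusted p = 0.0124), where 515 genes passed as higher, and without sedentary 10-month 2.1 (0.66, 0.0434), where 887 did. It also passed without cord 5.2 and 6.1 together (0.68, 0.0296), where 1.49% of genes passed as higher.

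Macrophages and microglia also express Cd36, and 5 of 8 macrophage markers rose in sedentary 18-month cord. Cd68 rose by 0.89 and C1qa by 0.71 on the log2 scale. The 8 markers summed to 603.5, 724.7 and 806.7 TPM at 18 months, against 404.2, 438.3 and 932.5 TPM at 10 months, and endothelial markers to 256.9, 272.9 and 290.9 TPM, against 216.4, 267.4 and 311.6 TPM, with 0 of 10 called. The part of these markers in the Cd36 difference was not tested. Lpl, the lipase that frees fatty acids from circulating triglyceride, rose in cord by 0.83 (SE 0.107, edgeR adjusted p = 5.39e-06), with 5.89, 8.87 and 12.5 TPM at 18 months, against 4.55, 5.14 and 5.91 TPM at 10 months, and ranges that met only at their edges. Abhd5, a co-activator of fat lipolysis, fell by 0.14 (adjusted p = 0.0411). These were the 2 of the other genes of fatty acid use that passed with age in cord.

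Exercise gave no call in cord by edgeR among the members or among all genes (0.0%), by DESeq2 or by limma. None of the members had an unadjusted p under 0.05, although 13.4% of genes did. The ageing difference in cord differed from that in the muscles for 1 member, Cpt2, where 1.04% of genes passed as higher and 2.54% in either direction. At an unadjusted p under 0.05 there were 4 members, beside 20.3% of genes. Cpt2 had 19.5, 22.6 and 26.8 TPM in sedentary 18-month cord, against 20.3, 22 and 23 TPM at 10 months, while its muscle medians were lower at 18 months as given above. The difference between the ageing effects was 0.32 on the log2 scale (SE 0.0898, edgeR adjusted p = 0.0362). Without the libraries that stand apart it was 0.18 (adjusted p = 0.273), so the call rested on them. For exercise, 0 members passed a difference between cord and muscles (background 0.836%), 2 had an unadjusted p under 0.05 (16% of genes did), and DESeq2, which called 2.2% of genes as lower, called Acadvl (-0.31, adjusted p = 0.0249).

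Library 3.1, from sedentary 10-month mice, stood at the top of the range in both muscles for several members. Acadl was 556.7 TPM in gastrocnemius 3.1, where no other gastrocnemius library passed 407.2 TPM, and 623.9 TPM in quadriceps 3.1, where no other passed 474.7 TPM. Cpt2 was 96.3 TPM, against at most 87.5 TPM in the other gastrocnemius libraries, and 127.3 TPM, against at most 93.4 TPM in quadriceps. Slc25a20 was 114.2 TPM, against at most 94.3 TPM, and 131.6 TPM, against at most 105.6 TPM. Relative to the median of the other 9 libraries of its group, Acadl was 1.94-fold in gastrocnemius and 1.96-fold in quadriceps, and Cpt2 1.44-fold and 1.64-fold. Library 3.1 held the highest value of all libraries for 4 members in gastrocnemius, 5 in quadriceps and 1 in cord.

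Not all members were high in 3.1: Acadm was 345.6 TPM in gastrocnemius, 31st of 33 from the top, and Fabp3 ranked 12th in gastrocnemius and 6th in quadriceps. Several genes known as targets of fatty acid sensing nuclear receptors were also high there, though not Acot13 or Ucp2. For Acot13 gastrocnemius 3.1, at 161.8 TPM, was the lowest of 33 gastrocnemius libraries. Ucp2 in 3.1 was 0.94 times the median of the other 10-month libraries in gastrocnemius and 1.0 times in quadriceps. Pdk4, which shuts off glucose oxidation, was 941.0 TPM in gastrocnemius 3.1 and 1227.6 TPM in quadriceps 3.1, against at most 419.9 and 510.1 TPM elsewhere in each muscle. Acot1 was 15.7 and 25.8 TPM, against at most 1.66 and 2.3 TPM. These genes were chosen after values of this library were known, so they describe it and are not a test.

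**Figure D4:**
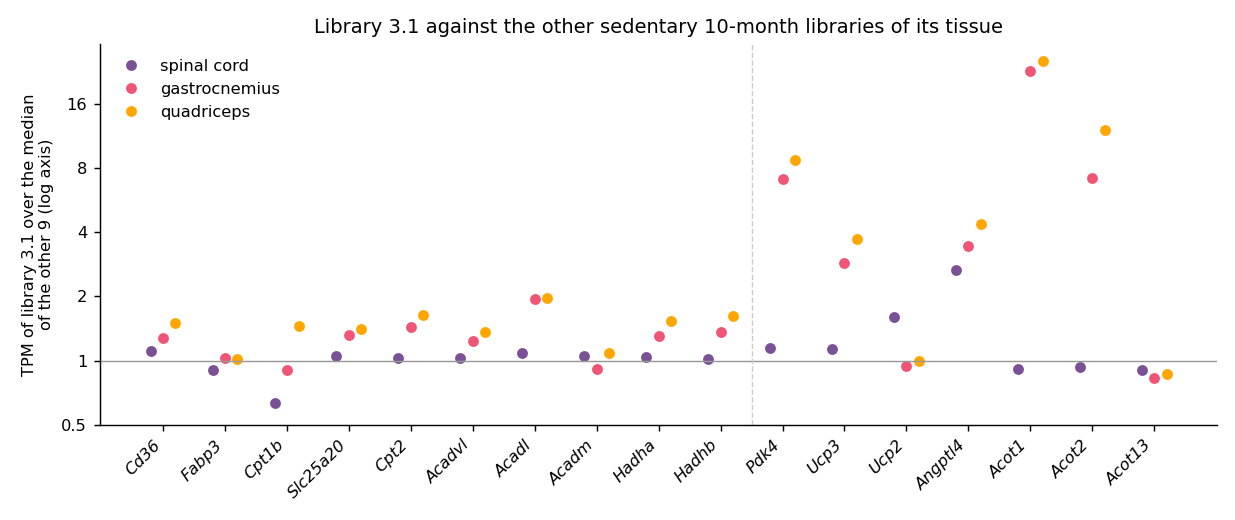
TPM of library 3.1 divided by the median of the other 9 sedentary 10-month libraries, on a log axis, for the 10 members (left of the dashed line) and 7 genes listed as fasting and PPAR targets in cord, gastrocnemius and quadriceps. Acadl stood at 1.94 and 1.96 in gastrocnemius and quadriceps, below Acot1 at 23.0 and 25.5 and Pdk4 at 7.15 and 8.76.

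Members varied together among muscle libraries of the same group. Over 64 gastrocnemius and quadriceps libraries, deviations from group means (log2 TMM-scaled CPM) of the 9 genes other than Cpt1b had 36 positive Pearson correlations of 36. They ran from 0.21 (Acadvl with Cd36) to 0.89 (Acadl with Hadhb), with a median of 0.62. Hadha and Hadhb had 0.85, below the 0.89 of Acadl with Hadhb. Their proteins form one complex and the genes share the stretch of promoter sequence shown above. The part of either in this value was not tested. Without library 3.1, the 62 remaining libraries gave 0.18 to 0.88 with a median of 0.67. Points share library depth and scaling, and muscles with the same number may come from the same animal.

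In cord, 29 of 36 correlations over 33 libraries were positive, from -0.33 (Hadha with Cd36) to 0.86 (Acadvl with Hadha), with a median of 0.51. Hadha with Hadhb was -0.02 in cord and 0.42 without cord 5.2 and 6.1. In muscle, the mean deviation of the 10 members correlated most with Etfdh (0.846), which passes electrons from the dehydrogenases to ubiquinone, then with Slc27a1 (0.786), Ech1 (0.769), Immt (0.753) and Eci1 (0.751), all over 64 libraries. Without library 3.1 the highest were Etfdh (0.855), Decr1 (0.834) and Acaa2 (0.825). The order depended on Cpt1b, a gene with few counts. With Cpt1b left out of the mean, Ech1 (0.833), Eci1 (0.821), Slc27a1 (0.803) and Immt (0.8) came ahead of Etfdh (0.791). Hadha was the member nearest to the members' mean, at 0.921, and Cpt1b the furthest, at 0.245.

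**Figure D5:**
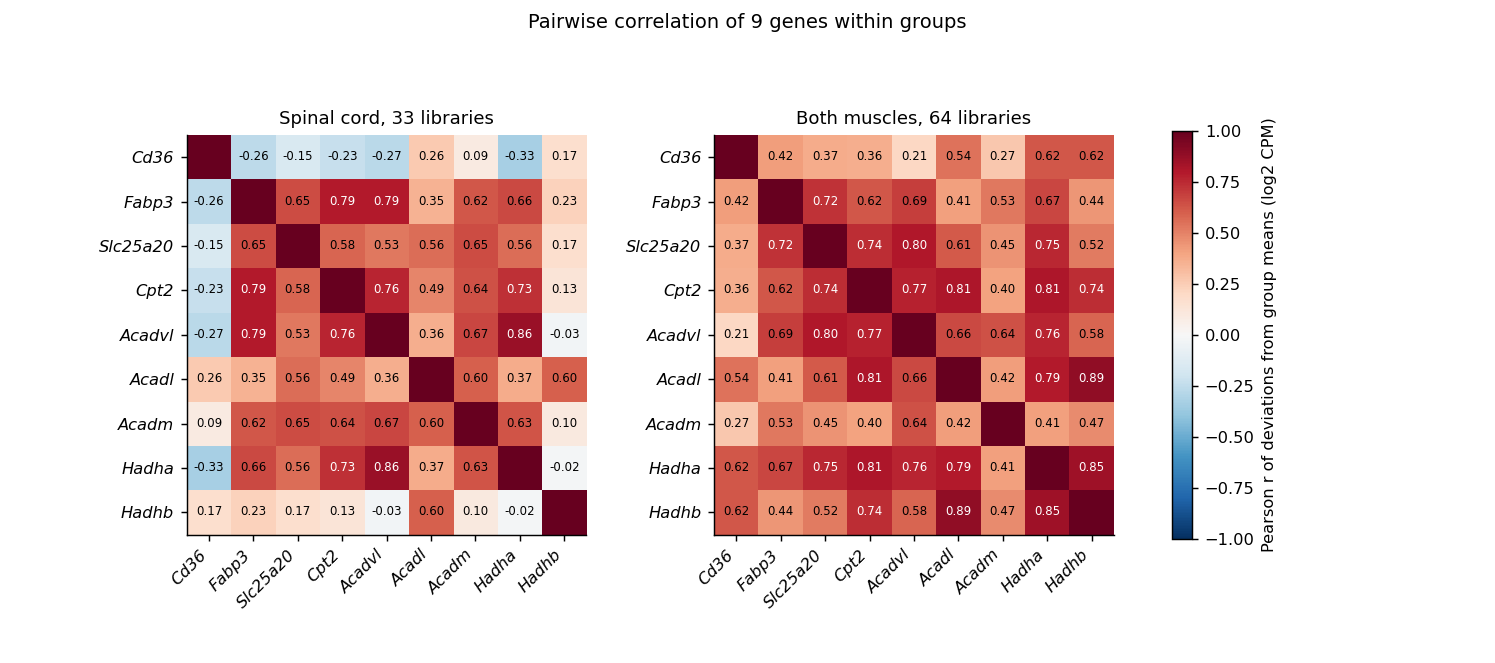
Pearson correlations between the members other than Cpt1b, computed on deviations from group means, in cord (33 libraries, left) and both muscles (64 libraries, right). Cord values ran from -0.33 to 0.86 and muscle values from 0.21 to 0.89.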

How the data were processed

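Tissues were flash frozen, RNA was taken up in Trizol, and poly(A) libraries were made with the TruSeq RNA v2 kit, per the labels. The submitters' processing notes name the aligner STAR 2.5.2b and the build GRCm38.p5. No source used here gives the counting program or its strand setting. The authors deposited raw counts per gene and TPM, and TPM recomputed from the counts and gene lengths matched the deposited TPM to within 0.0005. Of 99 labelled samples, 97 had a column; quadriceps 10.4 (sedentary, 18 months) and 10.2 (exercised, 18 months) were not analysed here.

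Counts were tested in R 4.3.3 with edgeR 4.0.16 (filterByExpr with a minimum count of 10 and minimum total of 15, TMM factors, quasi-likelihood F test, Benjamini-Hochberg adjustment over all genes, called under 0.05). Each tissue was fitted with its 3 groups; the muscles, and all tissues, were fitted together to compare tissues. TPM levels are from the deposited values. Alternatives were DESeq2 1.42.0, limma 3.58.1 on log2(TPM + 1), RLE factors, no low count filter, fits without the libraries that stand apart, with only the groups compared, with the first part of the library number as a term, with the shared number as a block, and leaving out each library. Leaving out each library in the comparison of the muscles, and the description of library 3.1, were added after seeing the data. The code was tested on simulated data.

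The members and the lists of other genes and markers were chosen with earlier results of these data known. All 10 members were named. Of the other listed genes, only some of those past the threshold were named, at most 4 per list and comparison unless grouped. The 10 genes nearest the members' mean, or fewer, were named as well. Intervals from the fits are 95% intervals. Exon overlaps and gene positions are from the GENCODE annotation of GRCm38 and promoter windows from RefSeq. First parts of library numbers 1 to 3 occur only at 10 months and 4 to 10 only at 18 months, so they cannot be told apart from age. 1 listed gene is not reported here.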

Additional observations from a re-analysis of the deposited data

Results flagged for a closer look

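Each member in each sedentary group was tested for a library far from the rest of its group. Of these 60 tests 17 found one, where chance gives about 1 in 20 for a single test. The members vary together and share libraries, so the 17 cannot be set against that rate as separate tests. Exercised groups were not among them. Library 3.1 (sedentary, 10 months) accounted for 11 of the 17. In gastrocnemius it was high for Cpt2 (96.3 TPM, the other 9 at 60.3 to 71.5), Acadl (556.7, others 247.0 to 323.9) and Slc25a20 (114.2, others 73.0 to 92). In quadriceps it was high for Acadl (623.9 TPM, others 244.6 to 370.4), Cpt2 (127.3, others 61.9 to 84.3) and Acadvl (511.1, others 349.7 to 412.8). It was also high there for Hadha (361.2, others 197.9 to 272.3), Hadhb (170.3, others 82.8 to 122.1), Cd36 (212.4, others 116.3 to 164.7) and Slc25a20 (131.6, others 79.7 to 105.6). In cord its Acadl was 107.3 TPM, with the others at 97.1 to 102.1.

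Sedentary 18-month quadriceps 5.2, the library with the lowest total, was low for Acadm (240.0 TPM, others 337.7 to 421.2), Acadl (208.0, others 304.2 to 385.8) and Hadhb (69.1, others 98.8 to 128.3). Sedentary 18-month cord 5.2, with the lowest mitochondrially encoded share, was high for Acadvl (137.3 TPM, others 107.4 to 121.9) and Hadha (111.5, others 87.9 to 97.9). Sedentary 10-month cord 1.1 was high for Cpt1b (0.326 TPM, others 0.118 to 0.218), a gene with at most 13 counts in cord.

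The ageing effect on Cpt2 differed between cord and the muscles by 0.32 on the log2 scale in the test of that difference (edgeR adjusted p = 0.0362), and by 0.18 (adjusted p = 0.273) without the libraries that stand apart.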

How the results depend on the processing

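Over 3 tissues, 3 comparisons of conditions and all settings other than leaving out single libraries, 62 of 66 counts of members called were 0. The exceptions were exercise in gastrocnemius, with 1 member without the libraries that stand apart and 2 with the first part of the number as a term, and ageing in cord, with 1 without those libraries and 1 by DESeq2. Leaving out single libraries gave 0 to 1 for ageing in cord and 0 throughout for the others. For gastrocnemius against quadriceps, sedentary 10-month mice gave 2 members with no low count filter, where 482 of 29333 genes were lower. They gave 1 by limma on TPM (243 of 15433 genes lower) and 2 to 6 on leaving out single libraries. Sedentary 18-month mice gave 1 by limma (400 of 15433 lower) and 2 to 6 on leaving out single libraries. Exercised 18-month mice gave 2 by limma, Acadm higher (as were 4549 of 15433 genes) and Fabp3 lower (as were 298). The difference in ageing effects between cord and muscles gave 0 members with no filter, where 119 of 32170 genes passed as higher. It gave 0 by limma (468 of 19735 genes higher) and 2 by DESeq2 (Cpt2 and Cd36, beside 432 of 15526 genes higher). Without the libraries that stand apart Cd36 passed in place of Cpt2, beside 90 of 19772 genes higher. The difference in exercise effects gave 1 by DESeq2, beside 342 of 15526 genes lower. The cause of these changes was not tested. No member that edgeR called reversed under the alternatives. Estimates that edgeR did not call changed sign between settings, among them 4 members in quadriceps with exercise, where Slc25a20 reached at most 0.0.

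With the shared library number as a block, gastrocnemius against quadriceps gave 8 members lower in sedentary 10-month mice, 7 in sedentary 18-month and 7 in exercised 18-month mice, while 1714, 1868 and 2975 of 15433 genes were lower. The difference in exercise effects between cord and muscles then gave 1 (Acadvl, -0.29, adjusted p = 0.0179), beside 392 of 19735 genes lower. The block changed no other count of members. Same-numbered gastrocnemius and quadriceps libraries had a median correlation of deviations of 0.4 over 31 pairs (30 above 0.1), and 22 correlated best with their own number, a hint from the data only. With cord the medians were 0.0975 and 0.108. Low counts limit Cpt1b in every tissue.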
